A study of Mus musculus with 24 samples.

Results

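The genes of follistatin, of the 4 inhibin beta subunits that form activins, of 3 activin receptors, of the liver-secreted protein fetuin-A and of the leptin receptor were examined in the liver RNA of diet-induced obese (DIO) mice. The 10 genes, Fst, Inhba, Inhbb, Inhbc, Inhbe, Acvr1b, Acvr2a, Acvr2b, Ahsg and Lepr, were taken by symbol from a count table of 22355 genes. All 10 had a row and all 10 were among the 11508 genes with enough counts to be tested. The mice had been given IUB288, an agonist of the glucagon receptor known by its code name, or its vehicle over 4 d. Livers were collected 22 h after the last IUB288 injection, 4 h after the last IUB288 injection, or 22 h after the last vehicle injection, with 8 mice in each group. All 24 mice were obese from diet. Age, sex, strain and dose were not used here. Vehicle livers were all taken at 22 h, so in the 4 h comparison the drug and the time since injection cannot be told apart.

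Activins are dimers of inhibin beta subunits and belong to the TGF-beta family of secreted signals. An activin binds a type II receptor, ACVR2A or ACVR2B, which recruits and phosphorylates the type I receptor ACVR1B (ALK4), and this leads to phosphorylation of SMAD2 and SMAD3. Follistatin is a secreted protein that binds activins and keeps them from their receptors. Liver is a source of circulating follistatin, and in humans its release has been tied to glucagon. INHBC and INHBE are beta subunits made mainly by hepatocytes.

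Library totals ran from 25.8 to 35.2 M counts in IUB288 22 h livers, from 24.7 to 35.2 M in IUB288 4 h livers and from 13.99 to 44.1 M in vehicle livers. All 12 tested hepatocyte marker genes were present, and their summed level was 73660 to 102900 CPM (counts relative to library totals, which were scaled by TMM) in IUB288 22 h livers, 78300 to 106200 CPM in IUB288 4 h livers and 84730 to 133200 CPM in vehicle livers. The median of this sum was 86390 CPM at 22 h, 84740 CPM at 4 h and 111200 CPM in vehicle. One library stood apart. Vehicle replicate 1 held the fat genes Ucp1 at 1390 CPM, Plin1 at 273 CPM and Adipoq at 161 CPM, against at most 0.576, 0.107 and 0.0784 CPM in any other library. It was also the highest vehicle liver for Inhbb and Acvr1b and the lowest for Lepr and Ahsg. Leaving it out changed no call for the 10 genes in any comparison.

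In the limma-voom test 8 of the 10 genes were called at 4 h against vehicle (5 higher and 3 lower), at a Benjamini-Hochberg adjusted p under 0.05. Of all genes tested, 44.2% were called in that comparison, 21.7% higher and 22.5% lower. At 22 h against vehicle 5 of the 10 were called (4 higher and 1 lower), against 36.8% of all genes, with 17.6% of all genes higher and 19.2% lower. Between 22 h and 4 h of IUB288 6 of the 10 were called, against 29.3% of all genes. The comparisons with vehicle share the vehicle livers, and the comparison of 22 h with 4 h is the test of the difference between them. The IUB288 and vehicle livers did not overlap at all for 6 of the 10 genes at 4 h and for 3 at 22 h, against 16.1% and 7.41% of all genes. The 22 h and 4 h livers did not overlap for 4 of the 10, against 10.7%. The median log2 fold change of the 10 was 0.14 at 4 h, 0.30 at 22 h and 0.09 between the times, beside medians of -0.07, -0.02 and -0.02 over all genes.

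**Figure D1:**
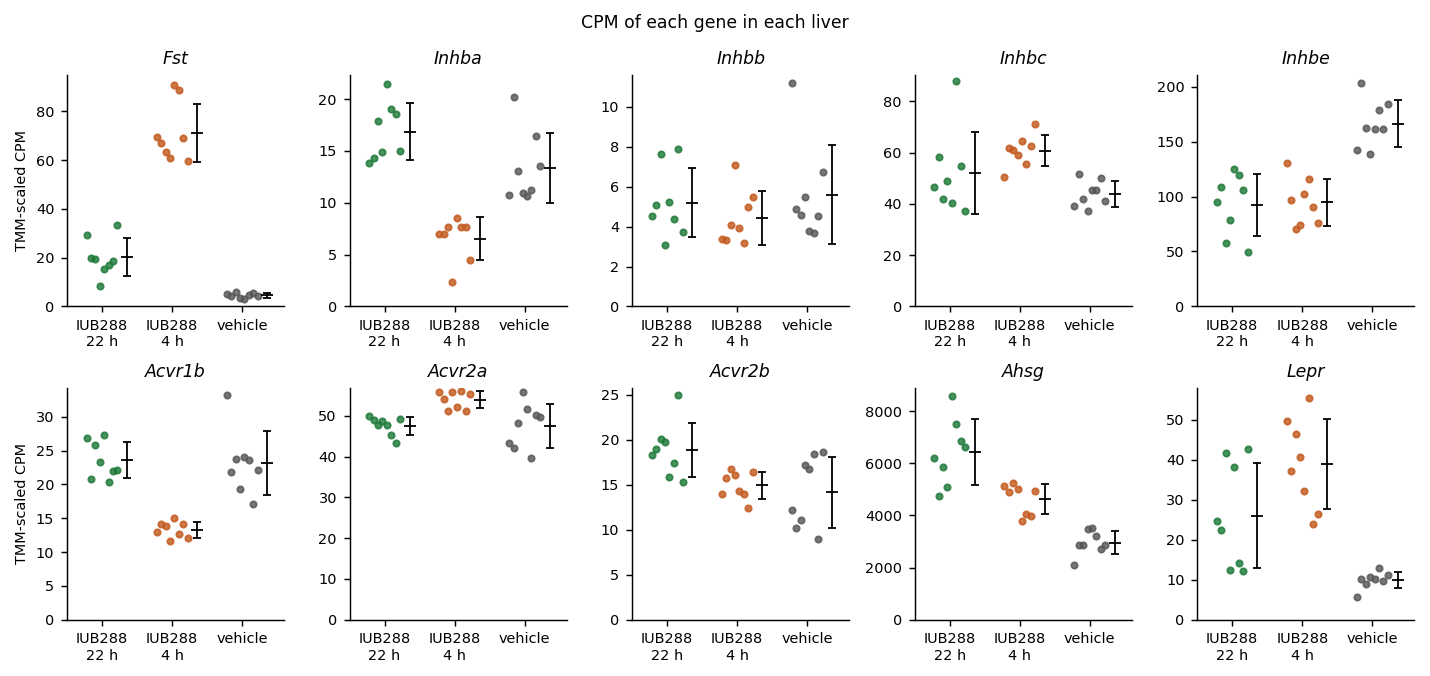
TMM-scaled CPM (y axis, linear from 0) of the 10 genes in each of 8 IUB288 22 h, 8 IUB288 4 h and 8 vehicle livers (points), with the group mean and SD as a bar beside the points. Fst separates into 3 levels with no overlap, Inhba and Acvr1b are low in the IUB288 4 h livers, and the vehicle livers are highest for Inhbe and lowest for Ahsg.

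Fst, the follistatin gene, changed most. It had 8.45 CPM in the lowest, 19.0 in the median and 33.3 in the highest IUB288 22 h liver, 59.7, 68.0 and 90.7 CPM in the IUB288 4 h livers, and 2.95, 4.57 and 5.71 CPM in the vehicle livers. No liver of one group reached the range of another. The mean was 20.2 ± 7.81 CPM at 22 h, 71.1 ± 12.1 CPM at 4 h and 4.46 ± 0.986 CPM in vehicle (SD, n = 8 each). The 4 h rise was 16.4-fold, with a log2 fold change of 4.04 ± 0.24 (SE) and a limma-voom adjusted p of 1.54e-12, and was the 24th largest rise of the 11508 genes. At 22 h Fst was still 4.35-fold above vehicle, a log2 fold change of 2.12 ± 0.26 (limma-voom adjusted p = 7.93e-07), the 64th largest. A rise of at least 4-fold was called for 1.27% of all genes at 4 h and for 0.66% at 22 h. Between the 2 times Fst fell by 1.91 ± 0.17 on the log2 scale (limma-voom adjusted p = 2.19e-09). The IUB288 22 h livers varied most, with a coefficient of variation of 38.8%, against 17.0% at 4 h and 22.1% in vehicle. The liver with the lowest level at 22 h, replicate 4, was still above every vehicle liver.

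Irs1, which encodes an adaptor of the insulin receptor, had the pattern most like that of Fst, with a Pearson correlation of log2 CPM of 0.978 over the 24 livers. Tat, the gene of tyrosine aminotransferase, followed at 0.964, then St3gal1 at 0.954, Znrf3 at 0.952 and Tnrc6c at 0.948. These values mostly describe the 3 group levels, since all 24 livers are pooled. With group means removed, the correlation was 0.592 for Irs1, 0.396 for Tat, 0.216 for St3gal1, 0.089 for Znrf3 and 0.058 for Tnrc6c. Irs1 had log2 fold changes of 1.57 at 4 h and 0.83 at 22 h, and Tat of 3.42 and 1.92, beside 4.04 and 2.12 for Fst.

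Among the ligands, Inhba, which encodes the subunit of activin A, moved opposite to Fst at 4 h. It had 13.8, 16.5 and 21.4 CPM in the lowest, median and highest IUB288 22 h liver, 2.33, 7.31 and 8.48 CPM in the IUB288 4 h livers, and 10.7, 12.1 and 20.2 CPM in the vehicle livers. Every 4 h liver lay below every liver of both other groups. Inhba was 2.05-fold lower at 4 h than in vehicle, a log2 fold change of -1.04 ± 0.20 (limma-voom adjusted p = 0.000146). At 22 h it was not called against vehicle, with a log2 difference of 0.39 and a 95% interval of 0.06 to 0.73 (limma-voom adjusted p = 0.0604). From the comparison of the times it was higher at 22 h than at 4 h by a log2 fold change of 1.43 ± 0.19 (limma-voom adjusted p = 2.46e-06). The 22 h difference from vehicle was called without vehicle replicate 2, the highest vehicle liver (limma-voom adjusted p = 0.0152), and under several other settings. Over all settings the log2 difference ran from 0.20 to 0.61, with a limma-voom adjusted p of 0.0152 to 0.662. The call therefore depends on the setting.

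The ratio of Fst to Inhba CPM within a liver sets the antagonist beside the activin A subunit. Its median was 1.05 at 22 h (0.567 to 2.22), 10.3 at 4 h (8.29 to 26.1) and 0.321 in vehicle (0.22 to 0.462). The median at 4 h was 32.2 times and the median at 22 h 3.26 times that of vehicle, and the ranges of the 3 groups did not overlap. The ratio compares RNA levels between groups and gives no amount of protein.

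Inhbb, the subunit gene of activin B, was low and was not called in any comparison. It had 3.08, 4.80 and 7.90 CPM in the lowest, median and highest IUB288 22 h liver, 3.20, 4.00 and 7.11 CPM at 4 h, and 3.68, 4.73 and 11.2 CPM in vehicle. All 3 groups overlapped, and the highest vehicle liver was replicate 1. The log2 difference was -0.36 at 4 h (95% interval -0.84 to 0.12) and -0.11 at 22 h (-0.58 to 0.36), with limma-voom adjusted p of 0.218 and 0.737. Between 22 h and 4 h it was 0.25 (-0.24 to 0.74, limma-voom adjusted p = 0.47). These intervals allow changes of over 1.5-fold at 4 h and between the times.

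Inhbe and Inhbc, the hepatocyte subunit genes, lie side by side on the minus strand of chromosome 10, 4473 bases apart in the RefSeq annotation of GRCm38.p6, and moved in opposite directions at 4 h. Their promoters are printed because neighbouring genes of a family differed in direction. Each run is the 250 bases before the RefSeq start, 5′ to 3′ on the minus strand, chr10:127351849-127352098 for Inhbe and chr10:127370549-127370798 for Inhbc. Capitals mark the only match in this pair to a searched motif, the reverse complement of the C/EBP-ATF response element TGATGCAA.
Inhbe: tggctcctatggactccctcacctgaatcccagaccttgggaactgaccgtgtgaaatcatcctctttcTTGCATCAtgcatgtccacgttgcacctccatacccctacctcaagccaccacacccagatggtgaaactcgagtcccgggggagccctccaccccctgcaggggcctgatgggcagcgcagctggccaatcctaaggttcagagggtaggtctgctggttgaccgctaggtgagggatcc
Inhbc: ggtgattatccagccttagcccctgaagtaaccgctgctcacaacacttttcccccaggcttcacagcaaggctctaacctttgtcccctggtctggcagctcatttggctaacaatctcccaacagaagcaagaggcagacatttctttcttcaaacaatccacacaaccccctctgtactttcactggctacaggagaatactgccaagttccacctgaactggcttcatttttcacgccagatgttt
The match in Inhbe lies 181 bases before the start. The element was found in 0.791% of 32851 RefSeq promoter entries of the same length. Of the 10 genes 9 had an entry, with 10 entries in all. Fst had none, so its promoter was not searched. Both strands were searched for 7 motifs that were chosen after the sequences were at hand. The 7 were TGATGCAA, the cAMP response element TGACGTCA and its short form TGACG, which the longer one contains, the forkhead element TGTTTAC, the SMAD palindrome GTCTAGAC, the E-box CACGTG and the STAT element TTCNNNGAA. They occurred in 0.791%, 1.55%, 17.8%, 3.17%, 0.167%, 6.02% and 7.02% of all entries, in that order. One other match was found, an E-box 54 bases before the start of Acvr1b, in the window chr15:101173822-101174071 on the plus strand, where capitals mark it.
Acvr1b: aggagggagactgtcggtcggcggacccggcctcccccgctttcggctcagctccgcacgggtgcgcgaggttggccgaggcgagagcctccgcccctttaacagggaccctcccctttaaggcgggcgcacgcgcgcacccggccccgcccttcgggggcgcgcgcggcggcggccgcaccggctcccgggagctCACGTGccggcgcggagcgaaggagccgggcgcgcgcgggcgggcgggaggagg
A match is a run of letters and no measure of binding.

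Inhbe encodes the subunit of activin E, a hepatokine that acts on fat cells. It had 49.1, 100.2 and 124.8 CPM in the lowest, median and highest IUB288 22 h liver, 70.2, 93.7 and 130.7 CPM at 4 h, and 138.6, 161.7 and 203.3 CPM in vehicle. Every IUB288 liver at both times was below every vehicle liver. Inhbe fell by 0.83 ± 0.17 at 4 h and by 0.90 ± 0.17 at 22 h on the log2 scale (limma-voom adjusted p = 0.000221 and 0.000173). Between 22 h and 4 h the log2 difference was -0.07, with a 95% interval of -0.41 to 0.27 (limma-voom adjusted p = 0.796). Fst and Inhba moved between the times, while for Inhbe a change between them was not detected and the interval limits it to under 1.5-fold.

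Inhbc, the gene of the activin C subunit, had 37.4, 47.9 and 87.8 CPM in the lowest, median and highest IUB288 22 h liver, 50.7, 61.4 and 71.2 CPM at 4 h, and 37.3, 43.6 and 51.5 CPM in vehicle. All 4 h livers lay above 7 of the 8 vehicle livers. Inhbc rose at 4 h by 0.47 ± 0.12 on the log2 scale (limma-voom adjusted p = 0.00291). In replicates 5 to 8 alone the value was 0.48 and was not called (limma-voom adjusted p = 0.109). At 22 h against vehicle the difference was 0.21 (95% interval -0.05 to 0.46, limma-voom adjusted p = 0.193), and against 4 h it was -0.26 (-0.51 to -0.02, limma-voom adjusted p = 0.106). The high value at 22 h was that of replicate 6. Without that liver Inhbc was called lower at 22 h than at 4 h, with a log2 fold change of -0.38 (limma-voom adjusted p = 0.00221). The ratio of Inhbe to Inhbc CPM within a liver had a median of 1.74 at 22 h (1.32 to 3.09), 1.51 at 4 h (1.07 to 2.58) and 3.79 in vehicle (3.21 to 4.46). Neither group of IUB288 livers overlapped the vehicle livers in this ratio.

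**Figure D2:**
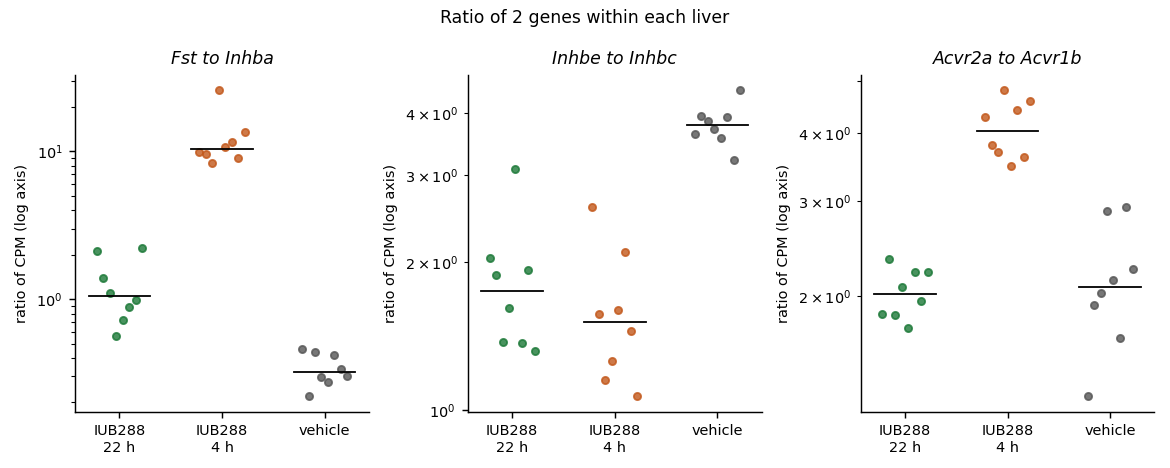
Ratio of the CPM of 2 genes within each liver (y axis, log scale) for Fst to Inhba, Inhbe to Inhbc and Acvr2a to Acvr1b, in 8 IUB288 22 h, 8 IUB288 4 h and 8 vehicle livers; the line is the median. Fst to Inhba is highest at 4 h, Inhbe to Inhbc is lower in all IUB288 livers than in any vehicle liver, and Acvr2a to Acvr1b stands apart at 4 h only.

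Of the receptors, Acvr1b, the type I receptor gene, fell at 4 h and was not called against vehicle at 22 h. It had 20.4, 22.8 and 27.3 CPM in the lowest, median and highest IUB288 22 h liver, 11.6, 13.4 and 15 CPM at 4 h, and 17.2, 22.9 and 33.2 CPM in vehicle. The 4 h livers lay below all livers of both other groups. The log2 fold change was -0.82 ± 0.11 at 4 h against vehicle (limma-voom adjusted p = 7.39e-07) and 0.82 ± 0.11 at 22 h against 4 h (limma-voom adjusted p = 1.04e-06). At 22 h against vehicle it was 0.01, with a 95% interval of -0.19 to 0.20 (limma-voom adjusted p = 0.96). Without vehicle replicate 1 the fall at 4 h was -0.72.

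The type II receptor genes moved less. Acvr2a had 43.3, 48.2 and 49.9 CPM in the lowest, median and highest IUB288 22 h liver, 51.1, 54.6 and 56 CPM at 4 h, and 39.6, 48.9 and 55.7 CPM in vehicle. It rose by 0.20 ± 0.06 at 4 h on the log2 scale (limma-voom adjusted p = 0.00807), although the 4 h and vehicle livers overlapped. It was lower at 22 h than at 4 h, by a log2 fold change of -0.18 ± 0.06 (limma-voom adjusted p = 0.0187), with no overlap between the times. Scaled by library totals alone, neither call was kept (limma-voom adjusted p = 0.0726 and 0.0819), nor in replicates 1 to 4 alone (0.138 and 0.42) or 5 to 8 alone (0.146 and 0.12). The log2 fold changes were 0.14 and -0.15 with library totals. With 4 livers a group they were 0.19 and -0.14 in replicates 1 to 4, and 0.18 and -0.20 in replicates 5 to 8. The call between the times was also lost with no filter on low counts (0.115) and with a stricter one (0.0504). Within a liver the ratio of Acvr2a to Acvr1b CPM had a median of 2.02 at 22 h (1.75 to 2.35), 4.05 at 4 h (3.47 to 4.81) and 2.08 in vehicle (1.31 to 2.92). All 4 h livers were above all vehicle livers in this ratio.

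Acvr2b had 15.3, 18.6 and 25.0 CPM in the lowest, median and highest IUB288 22 h liver, 12.5, 15.1 and 16.8 CPM at 4 h, and 9.01, 14.5 and 18.6 CPM in vehicle. All groups overlapped. It was higher at 22 h than in vehicle by a log2 fold change of 0.41 ± 0.13 (limma-voom adjusted p = 0.015), and at 4 h the difference was 0.08 (limma-voom adjusted p = 0.652). The 22 h call was lost with sample quality weights (limma-voom adjusted p = 0.0724) and in replicates 5 to 8 alone (0.58). Between 22 h and 4 h the difference was 0.32, with a 95% interval of 0.06 to 0.59 (limma-voom adjusted p = 0.0547), and it was called under several other settings, such as a stricter filter on low counts (0.0306). Acvr1c, the gene of the type I receptor ALK7 that binds activin E in fat, was not tested, since it had 20.5 CPM in vehicle replicate 1 and at most 0.485 CPM in any other library.

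**Figure D3:**
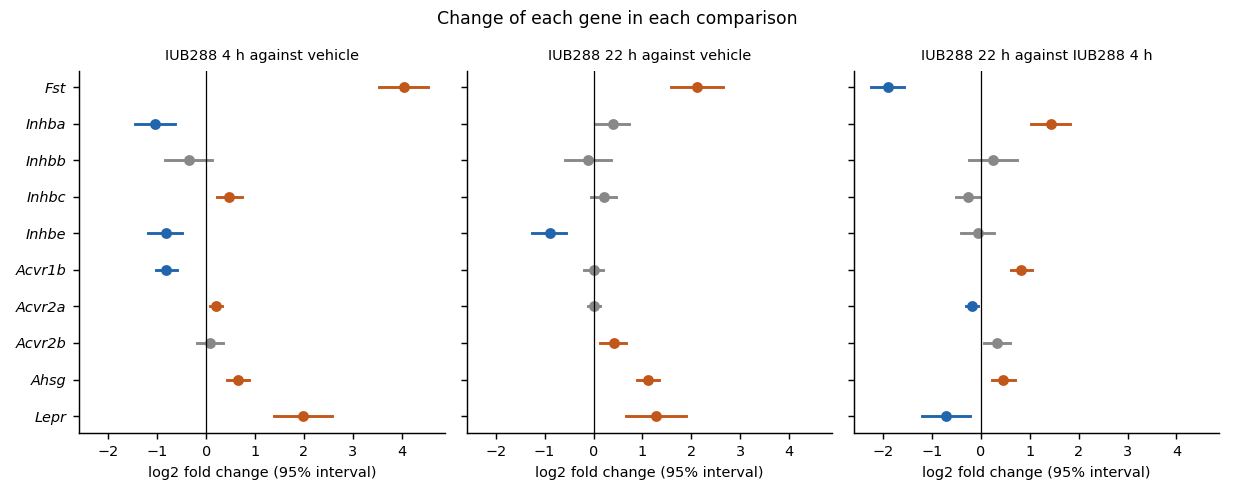
Log2 fold change (x axis) with its 95% interval for the 10 genes in each comparison, from limma-voom over 8 livers per group; orange marks higher and blue lower calls at an adjusted p under 0.05, grey no call. Fst and Lepr lie farthest to the right against vehicle, and Inhba and Acvr1b are called lower at 4 h and higher at 22 h than at 4 h.

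Ahsg encodes fetuin-A, an abundant plasma glycoprotein of the liver that inhibits the insulin receptor and binds calcium phosphate. It had 4733, 6404 and 8571 CPM in the lowest, median and highest IUB288 22 h liver, 3780, 4918 and 5225 CPM at 4 h, and 2116, 2876 and 3512 CPM in vehicle. Both groups of IUB288 livers were above all vehicle livers. Ahsg rose by 0.65 ± 0.11 at 4 h and by 1.11 ± 0.11 at 22 h on the log2 scale (limma-voom adjusted p = 3.68e-05 and 5.13e-08). It was higher at 22 h than at 4 h by 0.46 ± 0.11 (limma-voom adjusted p = 0.00298), so that it and Fst changed in opposite directions between the times. This last difference was not called in replicates 1 to 4 alone (limma-voom adjusted p = 0.727). In those livers the means were 5462 CPM at 22 h and 5059 CPM at 4 h, and in replicates 5 to 8 they were 7385 and 4188 CPM.

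Lepr encodes the receptor of the fat hormone leptin, and liver releases a soluble form of it that binds leptin in blood. It had 12.2, 23.5 and 42.8 CPM in the lowest, median and highest IUB288 22 h liver, 23.9, 39.0 and 55.5 CPM at 4 h, and 5.76, 10.1 and 13 CPM in vehicle. The 4 h livers were all above the vehicle livers, while at 22 h replicates 4 and 7 fell inside the vehicle range. The coefficient of variation was 50.3% at 22 h, 28.7% at 4 h and 20.8% in vehicle. Lepr rose by 1.98 ± 0.29 at 4 h and by 1.27 ± 0.30 at 22 h on the log2 scale (limma-voom adjusted p = 3.81e-06 and 0.00182). The 22 h call was lost in replicates 5 to 8 alone, at 1.06 (limma-voom adjusted p = 0.0899). It was lower at 22 h than at 4 h by a log2 fold change of -0.71 ± 0.24 (limma-voom adjusted p = 0.0265), with 5 of 8 livers at 22 h below the mean log2 CPM of the 4 h livers. That call did not hold without replicate 1 or 6 of the 4 h livers or replicate 4, 6 or 7 of the 22 h livers (limma-voom adjusted p = 0.0549 to 0.0704). It was also lost with no filter on low counts (0.0539), with only the 16 livers compared in the fit (0.0575), in replicates 1 to 4 alone (0.0526) and in replicates 5 to 8 alone (0.334). The counts do not separate the long and short forms of the receptor. Leprot, the next gene upstream on chromosome 4, had means of 23.8 CPM at 22 h, 27.4 CPM at 4 h and 27.2 CPM in vehicle. The ratio of Lepr to Leprot had a median of 0.935 at 22 h (0.50 to 1.87), 1.53 at 4 h (0.865 to 1.84) and 0.366 in vehicle (0.228 to 0.501).

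The genes most like the other called members differed from one member to the next. They were Zfp760, Gm20257 and Dapk2 for Inhba (Pearson correlation of log2 CPM over 24 livers 0.912, 0.904 and 0.90), and Klhdc7a, Hdac5 and Birc3 for Acvr1b (0.916, 0.909 and 0.909). They were Gramd1c, Gjb2 and C3 for Ahsg (0.933, 0.932 and 0.926), and Bmi1, Gpat3 and Senp6 for Lepr (0.922, 0.915 and 0.902). For Inhbe they were Tfpi2, Stn1 and Gm42333 (0.84, 0.831 and 0.818), and for Inhbc Surf4, Edem2 and Srp9 (0.843, 0.839 and 0.832). For Acvr2a they were Zhx1, Mtmr6 and Aftph (0.817, 0.796 and 0.796), and for Acvr2b Klf9 and Wdr81 (0.79 and 0.768). With group means removed these correlations lay lower, from 0.483 for Gm42333 with Inhbe to 0.802 for Srp9 with Inhbc. The 24 livers share the 3 group levels, so these are descriptions.

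The rest of the activin pathway was read from lists. Not every symbol drawn up had a row, so the counts cover only the tested part of each list. Of 42 symbols for secreted liver signals 28 had a row, and of 22 for SMADs and their brakes 15 had one. The list counts below stand beside shares over all genes of 21.7% higher and 22.5% lower at 4 h, and 17.6% and 19.2% at 22 h. At 22 h against 4 h 29.3% of all genes were called in either direction. Of 12 tested ligands, subunits and binding proteins, the members included, 2 were higher, 4 lower and 6 not called at 4 h, 1 was higher and 2 lower at 22 h, and 2 were higher and 1 lower at 22 h against 4 h. The median log2 fold change was -0.60, -0.14 and 0.07 in these comparisons. Of the 7 genes of the list outside the 10, none was higher and 2 were lower at 4 h, 1 was lower at 22 h, and 1 was higher between the times. Nodal, a ligand of the same receptors, fell by 3.20 ± 0.36 at 4 h on the log2 scale (limma-voom adjusted p = 8.14e-08) and was higher at 22 h than at 4 h by 3.33 ± 0.36 (limma-voom adjusted p = 7.37e-08). Its level was low, at a mean of 0.157 CPM at 4 h against 1.30 CPM in vehicle. Fstl1, a secreted follistatin-like protein made by stromal cells, fell by 0.97 ± 0.26 at 4 h and by 1.39 ± 0.27 at 22 h on the log2 scale (limma-voom adjusted p = 0.00331 and 0.000348), the direction opposite to Fst. With vehicle replicate 1 left out, the log2 fold changes of Fstl1 were -0.72 and -1.14, and the counts of the list were the same. Inha, the alpha subunit gene that turns activins into inhibins, had at most 0.338 CPM as a group mean and Igsf1 at most 0.447 CPM, and neither was called.

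Of 12 tested receptors and co-receptors 2 were higher and 2 lower at 4 h, 2 higher and 2 lower at 22 h, and 2 higher and 5 lower at 22 h against 4 h, with medians of -0.09, -0.15 and -0.10. These counts include Acvr1b, Acvr2a and Acvr2b. Of the other 9 receptor genes 1 was higher and 1 lower at 4 h, 1 higher and 2 lower at 22 h, and 1 higher and 4 lower between the times, with medians of -0.21, -0.17 and -0.26. Acvr1, the gene of the type I receptor ALK2, fell by 0.39 ± 0.07 at 4 h on the log2 scale (limma-voom adjusted p = 2.71e-05), the direction of Acvr1b. Tgfbr1, the type I receptor gene of TGF-beta, rose by 0.52 ± 0.09 at 4 h on that scale (limma-voom adjusted p = 4.66e-05). At 22 h the calls outside the 10 genes were, as log2 fold changes, Bmpr1a at 0.15, Eng at -0.59 and Tgfbr3 at -0.66, the last 2 being co-receptors. Without vehicle replicate 1 the counts were 3 higher and 2 lower at 4 h and 1 higher and 1 lower at 22 h, with medians of -0.05 and -0.08. Bmpr1a and Tgfbr3 were then no longer called at 22 h (limma-voom adjusted p = 0.0708 and 0.0591).

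Of 14 tested SMAD transducers and their brakes 6 were higher and 4 lower at 4 h, 2 higher and 3 lower at 22 h, and 3 higher and 5 lower at 22 h against 4 h. Smad3, which carries the activin signal, rose by 0.48 ± 0.09 at 4 h and 0.40 ± 0.09 at 22 h on the log2 scale, used for all SMAD values here (limma-voom adjusted p = 0.000109 and 0.00131). Its partner gene Smad2 was not called at 4 h, at 0.11 (95% interval -0.02 to 0.24), and fell by 0.30 ± 0.07 at 22 h (limma-voom adjusted p = 0.00104). Smad4, the shared partner of both, rose by 0.21 ± 0.07 at 4 h (limma-voom adjusted p = 0.0143). Of the brakes, Skil rose by 0.62 ± 0.10 at 4 h, while Smad6 fell by 0.75 ± 0.12 and Smad7 by 0.42 ± 0.17 (limma-voom adjusted p = 1.44e-05, 9.67e-06 and 0.0483). Skil and Smad7 are also induced by SMAD signalling, and they moved apart at 4 h, where Smad7 was near the threshold. At 22 h neither was called (limma-voom adjusted p = 0.667 and 0.074). The activity of the SMADs was not measured. Without vehicle replicate 1 the counts were the same except that 1 gene in place of 2 was higher at 22 h.

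**Figure D4:**
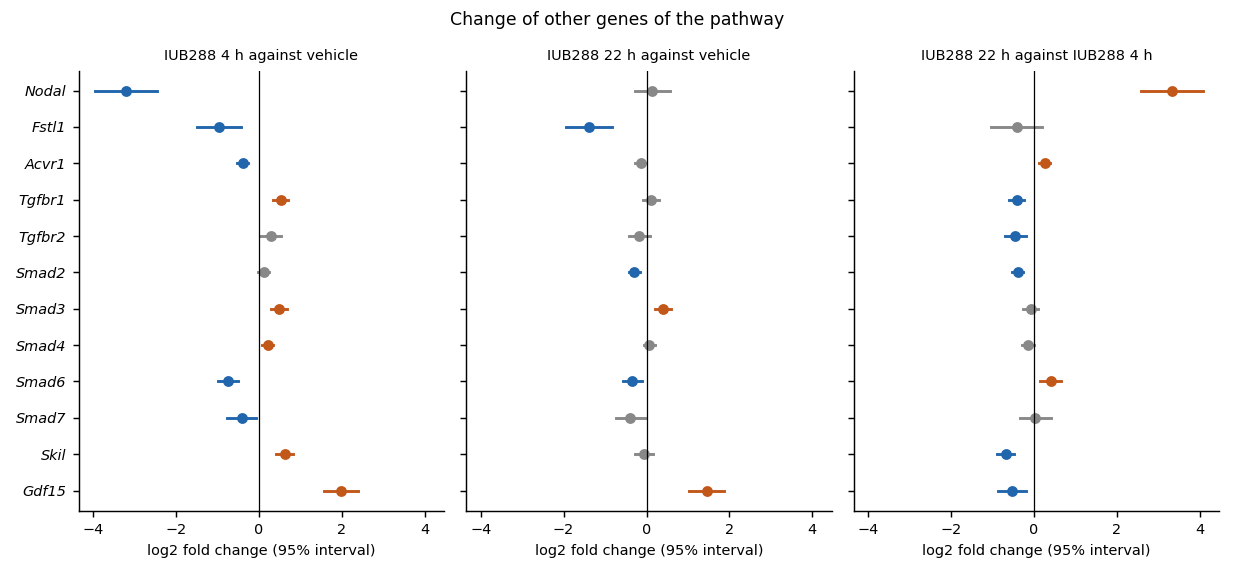
Log2 fold change (x axis) with its 95% interval for 12 other genes of the pathway lists in each comparison, from limma-voom over 8 livers per group; orange marks higher and blue lower calls at an adjusted p under 0.05, grey no call. Nodal is lower at 4 h and higher at 22 h than at 4 h, Smad3 is higher at both times, and Fstl1 is lower at both times.

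Of 20 tested genes often induced by SMAD2/3 signalling 2 were higher and 11 lower at 4 h, with a median log2 fold change of -0.73. At 22 h none was higher and 11 were lower, with a median of -0.74. Acta2, the smooth muscle actin gene, fell by 1.38 ± 0.34 at 4 h and by 2.29 ± 0.39 at 22 h on the log2 scale (limma-voom adjusted p = 0.00173 and 7.17e-05), and the collagen gene Col3a1 by 1.30 ± 0.34 and 2.12 ± 0.35 (limma-voom adjusted p = 0.00275 and 4.72e-05). Id1 fell by 1.64 ± 0.31 at 4 h and was called higher at 22 h than at 4 h, by 1.41 ± 0.32 (limma-voom adjusted p = 0.000143 and 0.00132). Whether Id1 or the other genes of the list follow SMAD2/3 in these livers was not tested. With vehicle replicate 1 left out, the counts were 2 higher and 10 lower at 4 h, with a median of -0.45, and 1 higher and 11 lower at 22 h, with a median of -0.73. The log2 fold changes at 4 h and 22 h were then -1.15 and -2.06 for Acta2, and -1.10 and -1.91 for Col3a1. For Id1 the value at 4 h was -1.44. Markers of other cell types moved with this list. Of 14 stellate cell and fibroblast markers, Acta2, Tagln and 3 collagen genes among them, 7 were lower at 4 h and 13 at 22 h. Their summed level was 299.0 to 860.7 CPM at 22 h, 562.8 to 933.1 CPM at 4 h and 954.9 to 1618 CPM in vehicle, and none was at 0 in every liver of a group. The highest vehicle sum was that of replicate 1, and the next was 1328 CPM. Of 13 endothelial markers, the co-receptor gene Eng among them, 5 were lower at 4 h and 13 at 22 h. Their sums were 290.3 to 726.3 CPM at 22 h, 655.4 to 738.5 CPM at 4 h and 562.4 to 1033 CPM in vehicle. Of 13 Kupffer cell and macrophage markers 4 were lower at 4 h and 8 at 22 h, with sums of 169.3 to 714.2 CPM at 22 h, 375.7 to 646.0 CPM at 4 h and 413.1 to 1224 CPM in vehicle. Calls were not confined to these cell types. Among 12 hepatocyte markers 4 were higher and 7 lower at 4 h, and 5 higher and 5 lower at 22 h. Of 13 markers of lymphoid cells (T, NK and B), 6 fell at each time. Without vehicle replicate 1 that was 2 at 4 h and 4 at 22 h. Of 9 bile duct markers 3 fell at 4 h and 2 at 22 h. Red cell genes split, with 2 of 6 higher and 4 lower at each time. In bulk liver fewer cells of a type and less RNA per cell cannot be told apart. The part of these markers in the fall of Fstl1, Eng, Tgfbr3 and the SMAD2/3 list was not tested.

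Of 20 other ligands and antagonists of the TGF-beta family 4 were higher and 3 lower at 4 h, and 4 higher and 6 lower at 22 h. Gdf15, a stress-induced hormone, rose by 1.98 ± 0.20 at 4 h and by 1.45 ± 0.21 at 22 h on the log2 scale (limma-voom adjusted p = 1.56e-08 and 9.48e-06).

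Of 27 tested secreted liver signals, Fst, Inhbc, Inhbe and Ahsg among them, 13 were higher and 6 lower at 4 h, 15 higher and 7 lower at 22 h, and 6 higher and 4 lower at 22 h against 4 h. The medians were 0.31, 0.25 and 0.01. Of the 23 outside the 10 genes, 10 were higher and 5 lower at 4 h, and 13 higher and 6 lower at 22 h. Between the times 5 of them were higher and 3 lower. Igfbp1, a binding protein of insulin-like growth factors, rose by 3.62 ± 0.36 at 4 h and 2.11 ± 0.37 at 22 h on the log2 scale (limma-voom adjusted p = 1.15e-08 and 8.85e-05) and was lower at 22 h than at 4 h, by -1.51 ± 0.30 (limma-voom adjusted p = 0.000345), in the order of Fst. Igfbp2 had the order of Ahsg. It had a log2 difference of 0.37 at 4 h (limma-voom adjusted p = 0.183), rose by 1.16 ± 0.22 at 22 h (limma-voom adjusted p = 0.00026) and was higher at 22 h than at 4 h by 0.79 ± 0.22 (limma-voom adjusted p = 0.00677). The angiotensinogen gene Agt and the hemopexin gene Hpx rose at 4 h by 1.03 ± 0.12 and 0.83 ± 0.10 and at 22 h by 1.15 ± 0.12 and 0.83 ± 0.10 on the log2 scale. The limma-voom adjusted p was 1.51e-07 and 4.46e-07 at 4 h and 9.76e-08 and 1.1e-06 at 22 h.

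Of 25 tested genes of leptin and gp130 receptor signalling, Lepr included, 10 were higher and 3 lower at 4 h. At 22 h 9 were higher and 6 lower, and at 22 h against 4 h 2 were higher and 6 lower. Of the 24 without Lepr, 9 were higher and 3 lower at 4 h, and 8 higher and 6 lower at 22 h. Between the times 2 of the 24 were higher and 5 lower. Irs1 rose by 1.57 ± 0.08 at 4 h and by 0.83 ± 0.08 at 22 h on the log2 scale, used for all values of this list (limma-voom adjusted p = 1.24e-13 and 2.8e-08), and Irs2 by 2.35 ± 0.15 and 0.90 ± 0.16 (limma-voom adjusted p = 3.47e-12 and 0.000157). Both encode adaptors of the insulin receptor that also serve other receptors. Lifr, the receptor gene of leukemia inhibitory factor, rose by 0.69 ± 0.17 at 4 h and 0.95 ± 0.17 at 22 h (limma-voom adjusted p = 0.00158 and 0.000125). Socs2, a feedback inhibitor of cytokine and growth hormone receptors, fell by 1.56 ± 0.20 at 4 h and by 1.00 ± 0.18 at 22 h (limma-voom adjusted p = 7.87e-07 and 0.000179). With vehicle replicate 1 left out, the counts were 11 higher and 2 lower at 4 h, 10 higher and 4 lower at 22 h, and 3 higher and 10 lower at 22 h against 4 h.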

How the data were processed

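RNA of frozen mouse liver was prepared with the miRNeasy Mini Kit and sequenced as KAPA mRNA HyperPrep libraries, per the labels' protocols. The submitters' processing notes name cutadapt for trimming and GSNAP with build GRCm38 for alignment. Their versions, the counter, the gene models and the use of strand are not given in the sources used here, so reads of overlapping or antisense genes may be included. The authors deposited whole-number counts per gene (22355 genes, 24 libraries). All 536520 values were whole and not below 0. The deposited table holds genes up to one Entrez number in text order, and other genes, such as some members of the lists, were not analysed here.

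Genes that passed an expression filter (minimum count 10, minimum total 15) numbered 11508 and held 99.92% of counts. TMM scaling was computed with trims of 30% and 5%. Levels are CPM with scaled totals. limma 3.58.1 (R 4.3.3) fitted voom weights (offset 0.5) and the 3 group means over all 24 libraries, with 21 residual and 4.08 prior degrees of freedom. Adjusted p-values are Benjamini-Hochberg values across the 11508 genes of a comparison, called under 0.05. Errors of log2 fold changes are standard errors. The test was tested on simulated data. Alternatives were other scalings, filters, weights, livers and blocks. Counts of the lists without vehicle replicate 1 were added after seeing the data.

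The labels call the 8 livers of a group biological replicate mice. The smallest chi-square per degree of freedom over 84 pairs of libraries within a group was 21.6, so none was a copy. Genes and lists were chosen with earlier results of these data known. Beside the 10 genes, list genes named were those with the smallest p of a list and comparison at 1 CPM or more, and subunits, receptors and SMADs. Bmpr1a, Eng and Tgfbr3 were also named as small counts of calls. Promoters are RefSeq's for GRCm38.p6. Levels are not compared between genes, since they are not per length. Some genes that the rule for names covers are not reported here.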

Additional observations from a re-analysis of the deposited data

Results flagged for a closer look

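For 6 of the 10 genes the change at 22 h differed from the change at 4 h in the limma-voom comparison of the times. That comparison is the test of this difference, and it called 29.3% of all genes. Both changes use the same 22 h vehicle livers, so a change with time that does not depend on the drug cannot be told apart. The log2 difference was -1.91 for Fst, 1.43 for Inhba, 0.82 for Acvr1b, -0.18 for Acvr2a, 0.46 for Ahsg and -0.71 for Lepr. The 22 h and 4 h livers did not overlap for Fst, Inhba, Acvr1b and Acvr2a, and they overlapped for Ahsg and Lepr. Of all genes, 10.7% did not overlap between these groups.

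The lowest vehicle liver for Lepr, replicate 1, had 5.76 CPM and the next had 8.86 CPM. On the log2 CPM scale that gap was 0.532 of the range of the 8 vehicle livers, above the limit of 0.526, and it was the only such liver in 30 combinations of gene and group. On the CPM scale the gap was 0.431 of the range, below the limit, and 3 other livers passed it. These were vehicle replicate 1 for Inhbb (0.597) and Acvr1b (0.569) and IUB288 22 h replicate 6 for Inhbc (0.589), each the highest of its group. Chance flags about 1 in 20. The same library held the fat genes. Without it Lepr was still called higher, by 1.84 at 4 h and 1.13 at 22 h on the log2 scale (limma-voom adjusted p = 1.43e-05 and 0.00531).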

How the results depend on the processing

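The 30 values (10 genes in 3 comparisons) were computed again under 35 settings each. Of 1050 values, 986 kept direction and side of the threshold, 22 lost a call, 19 gained one and 23 changed sign, and 15 of the 30 values kept both under every setting. The values that changed sign were not called in the main test. Acvr2b at 4 h was -0.19 in replicates 5 to 8 alone and -0.05 with quality weights. Inhbb at 22 h was 0.21 in replicates 5 to 8 alone, 0.05 with quality weights, and -0.20 to 0.10 with 1 liver left out, the last without vehicle replicate 1. Acvr1b at 22 h was -0.02 with library totals and in replicates 1 to 4 alone, and -0.03 to 0.10 with 1 liver left out. Acvr2a at 22 h was -0.01 with library totals, -0.02 in replicates 5 to 8 alone, and -0.02 to 0.05 with 1 liver left out. Inhbe between 22 h and 4 h was 0.00 in replicates 5 to 8 alone, and -0.14 to 0.05 with 1 liver left out.

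Replicates 1 to 4 alone gave 3 of the 10 genes called between 22 h and 4 h. All genes called were 2908 at 4 h, 1229 at 22 h and 1473 between the times in replicates 1 to 4 alone, and 3166, 3240 and 2514 in replicates 5 to 8 alone, with 4 livers a group in both. The cause of the difference was not tested. With 1 liver left out, the 10 genes gave 8 calls at 4 h, 5 to 6 at 22 h and 5 to 7 between the times, and all genes gave 4743 to 5253, 3846 to 4281 and 3081 to 3724. The replicate numbers did not pair the livers: correlations of same-numbered deviations ran from -0.219 to 0.134. With the replicate block 8, 5 and 6 of the 10 genes were called, and 5425, 4388 and 3433 of all genes. The edgeR and DESeq2 alternatives were not run.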
